A study of Mus musculus with 55 samples.

Results

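A set of 10 genes of the hepatic acute phase response was examined in mouse livers with or without the membrane E3 ubiquitin ligases RNF43 and ZNRF3. They were taken by symbol, namely the serum amyloid A genes Saa1, Saa2, Saa3 and Saa4, the orosomucoids Orm1 and Orm2, lipocalin 2 (Lcn2), haptoglobin (Hp), C-reactive protein (Crp) and the cytokine signalling inhibitor Socs3. They are 10 of 49997 symbols in the gene counts of sequencing batch 1 and of 49568 in those of batch 2, and all 10 passed the filter on low counts in every fit. Whole-liver RNA was sequenced from C57BL/6 mice that all carried floxed Rnf43 and Znrf3 alleles, in which the exons that code for the RING domains can be removed by Cre. In R&Z-del mice (mutant in the labels) these exons were deleted in hepatocytes, either by a virus carrying Cre under the hepatocyte promoter TBG or by tamoxifen acting on Alb1-CreERT2. R&Z-flox mice (wild-type in the labels) were floxed controls given a null virus or vehicle. Undamaged livers were taken 1, 3 and 7 months (M) after deletion. Chronic damage (CD) livers, so labelled in both genotypes, were taken 4, 50 and 170 days (d) into recovery from repeated CCl4, a hepatotoxin, and tumours are described in the mutants at the last time. The study's methods give unrecombined littermates corn oil alone while its results speak of controls on the same regimen, so whether the CD R&Z-flox livers had received CCl4 is not settled here. Livers after partial hepatectomy (PHx), the surgical removal of part of the liver, were taken at 7 and 21 d. Deletion was by virus at 1M and PHx, by tamoxifen at 7M and CD, and at 3M by tamoxifen in batch 1 and by virus in batch 2, so that agent and time point cannot be told apart outside 3M. The groups held 4 R&Z-del and 4 R&Z-flox libraries at 1M, 2 and 5 at 3M, 5 and 5 at 7M, 2 and 2 at CD 4d, 2 and 1 at CD 50d, 2 and 2 at CD 170d, and 3 and 3 at each PHx time. CD libraries were all male and all from batch 1, 1M and PHx libraries were all from batch 2, and females were 2 of 4 in each genotype at 1M, 1 R&Z-del library at 3M, 1 R&Z-flox library at 7M and 1 R&Z-del library at PHx 21d.

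Acute phase proteins are secreted mostly by hepatocytes, and their blood levels rise within hours of infection or injury. Interleukin 6 acting through STAT3, and interleukin 1 and TNF acting through NF-kB, switch on their transcription together with C/EBP factors, and glucocorticoids strengthen the response. Serum amyloid A proteins associate with high-density lipoprotein. SAA1 and SAA2 are the strongly inducible hepatic forms, SAA3 is made largely outside hepatocytes and SAA4 is constitutive. Orosomucoids bind lipophilic ligands and drugs, lipocalin 2 withholds iron by binding bacterial siderophores and is also a neutrophil granule protein, haptoglobin captures free haemoglobin, and SOCS3 closes the loop by inhibiting JAK-STAT3 signalling. C-reactive protein, a pentraxin that binds phosphocholine, is a major acute phase protein in humans but only a weak one in mice.

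The DNA just upstream of the annotated start is shown for 4 members whose values carry the results below, the strongly varying Saa2, Orm2 and Lcn2 and Crp, which had the narrowest range of the 10 in batch 2. Each run is 250 bases ending just before the start, 5' to 3' on the gene's own strand, from RefSeq on GRCm38.p6, at chr7:46751583-46751832 on the plus strand for Saa2, chr4:63362199-63362448 plus for Orm2, chr2:32387740-32387989 minus for Lcn2 and chr1:172697806-172698055 plus for Crp. Capitals mark every match, on either strand, to the C/EBP-type letters TTNNGNAA and every plus-strand match to TATAAA, and the overlap of motifs was allowed.
Saa2: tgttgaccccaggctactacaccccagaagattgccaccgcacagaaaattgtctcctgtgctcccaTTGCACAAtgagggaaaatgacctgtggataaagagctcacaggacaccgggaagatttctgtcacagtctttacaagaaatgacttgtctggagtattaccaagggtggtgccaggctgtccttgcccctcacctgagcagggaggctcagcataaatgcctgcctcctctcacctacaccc
Orm2: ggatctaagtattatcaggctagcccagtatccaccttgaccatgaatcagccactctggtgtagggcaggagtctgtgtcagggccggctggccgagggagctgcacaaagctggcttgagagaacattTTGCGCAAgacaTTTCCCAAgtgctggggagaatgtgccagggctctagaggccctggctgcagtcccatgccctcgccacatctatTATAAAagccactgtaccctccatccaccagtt
Lcn2: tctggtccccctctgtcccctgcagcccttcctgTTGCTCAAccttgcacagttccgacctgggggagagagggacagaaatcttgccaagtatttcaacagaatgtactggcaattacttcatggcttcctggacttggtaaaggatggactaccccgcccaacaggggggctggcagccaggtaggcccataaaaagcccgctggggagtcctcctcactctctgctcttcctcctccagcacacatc
Crp: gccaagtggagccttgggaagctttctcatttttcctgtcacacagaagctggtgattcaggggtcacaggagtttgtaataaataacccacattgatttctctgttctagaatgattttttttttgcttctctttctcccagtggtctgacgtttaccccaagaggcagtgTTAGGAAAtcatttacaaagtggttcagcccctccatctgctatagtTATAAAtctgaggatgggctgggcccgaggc
In the same 250 bases of 32851 RefSeq promoters, on either strand, TTNNGNAA was found in 36.8%, so a match is common, and TATAAA in 12.4%. Saa1 held 2 C/EBP-type matches, Saa2 1, Saa3 4, Saa4 2, Orm2 2, Lcn2 1, Crp 1 and Socs3 0. The STAT3-type letters TTCNNNGAA, found in 7.02% of all promoters, occurred in Socs3 alone among the 8 members with an entry, and the NF-kB consensus, found in 7.25%, in none. With the first bases after the start added, the windows of Saa1 and Saa2 were identical in 287 of 301 aligned columns (95.3%).

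Levels are given as CPM, a gene's count scaled to the total of its library, and are divided by exon length in kilobases where genes are compared with each other. The 48 libraries in groups held between 11721687 and 32168223 counts. Fold changes are log2 ratios from edgeR quasi-likelihood fits with TMM-scaled library sizes, each with its standard error (SE), and p-values were adjusted over all genes tested. To be called, a gene needed an adjusted p below 0.1 together with a log2 fold change beyond 1 in either direction. For R&Z-del against R&Z-flox after PHx the unadjusted p below 0.05 took the place of the adjusted one, which is the study's own rule. The labels do not say more of the animals than their groups, so p-values measure the spread between these livers. In whole liver, fewer cells of a type and less RNA per cell cannot be told apart. Rnf43 and Znrf3 themselves had higher counts in R&Z-del at all 8 time points (log2 fold change at 1M of 2.22 ± 0.49 SE for Rnf43 and 1.82 ± 0.32 for Znrf3), so gene-level counts do not show the loss of the floxed exons and do not check the labels by a fall. Hepatocyte markers were the most abundant of the marker lists in every library. Paralogs share sequence: 10.8% of the 50-base stretches of Saa1 transcripts also occur in Saa2 or Saa3, 9.09% of those of Saa2 in Saa1, 20.4% of those of Orm1 and 21.8% of those of Orm2 in another orosomucoid, and none of those of Saa4, so the split of reads within a pair is uncertain to that extent.

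A single R&Z-flox library at CD 170d, replicate 1, stood apart for these genes from every other batch 1 library. The study's sample list enters both R&Z-flox libraries of CD 170d under CD 50d as well, whereas their labels give 170 d alone, and the labels were followed. It held 13934 CPM of Saa1 where replicate 2 of the same group held 46.4 (300-fold), and 8667 CPM of Saa2 where replicate 2 held 12.9 (670-fold). Lcn2 was at 2596 CPM against 10.7 (242-fold), and Orm2 at 1227 against 18.4 (66.8-fold). Hp, Orm1 and Saa4, which are abundant in every liver, stood higher by 5.60, 3.54 and 3.29 times. Saa3 was 48.8 times higher (367 against 7.52 CPM) and Socs3 8.23 times (29 against 3.52), whereas Crp was level (609 against 636). That library was the highest of the 18 batch 1 libraries in 9 of the 10 genes, Crp being the exception, against 1.84% of all 13447 genes tested, and the same 9 stood more than 2-fold above replicate 2, against 6.05% of genes. By size of the log2 ratio between the 2 libraries, the rank among those genes was 1 for Saa2, 3 for Saa1, 4 for Lcn2, 10 for Orm2 and 12 for Saa3.

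**Figure D1:**
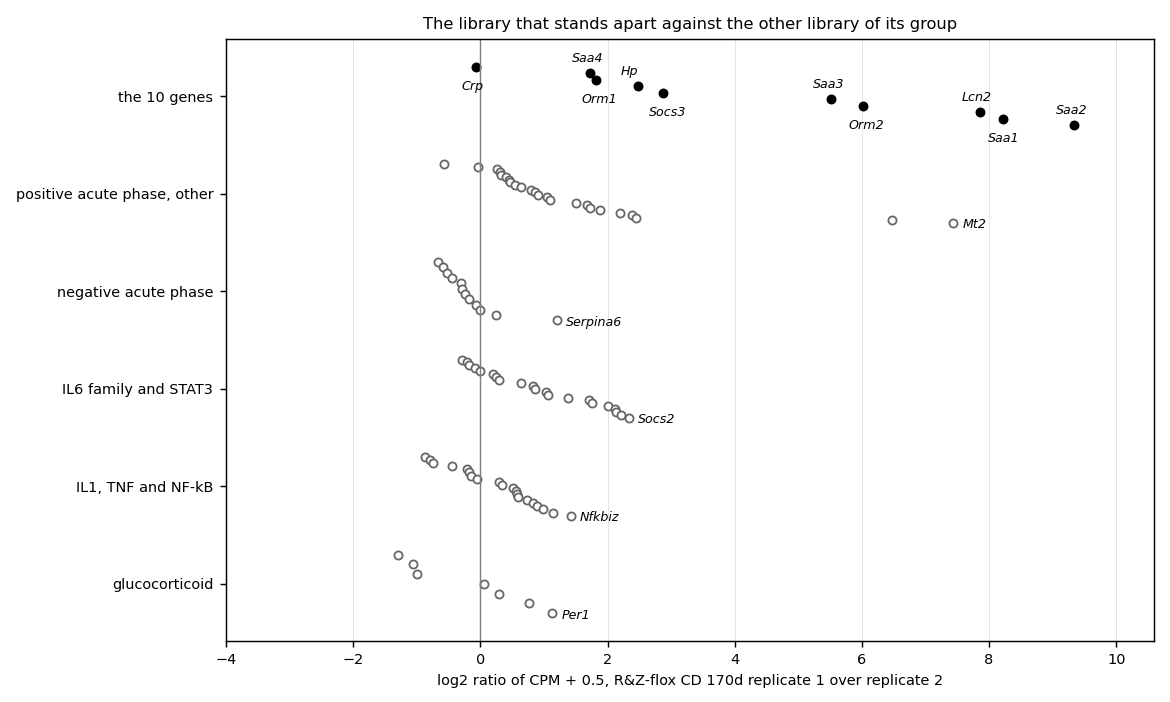
Each point is a gene of a list, and the horizontal axis is the log2 ratio of CPM between replicate 1 and replicate 2 of R&Z-flox at CD 170d (rows are gene lists, members labelled by symbol). Saa2, Saa1 and Lcn2 lie farthest to the right, Crp lies near 0, and the negative acute phase genes lie mostly left of 0.

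The other listed acute phase genes differed between the same pair of libraries, with less regularity. Of 24 other positive acute phase genes, 11 were more than 2-fold higher in replicate 1 and 17 were at their highest of the 18 libraries, among them the metallothioneins Mt2 (247-fold) and Mt1 (92.1-fold), which bind zinc, Lrg1 (5.44-fold) and the protease inhibitor Serpina3n (5.24-fold). None of 12 negative acute phase genes, whose products fall in inflammation, was more than 2-fold lower, and Serpina6 was 2.30-fold higher. Ttr, Rbp4 and Apoa1, 3 of the 12, were at their lowest of the 18, against 9.3% of all genes, and Fetub was at its highest. In the IL6 and STAT3 list 10 of 21 genes were more than 2-fold higher, in the IL1, TNF and NF-kB list 2 of 20, and in the glucocorticoid list of 7 genes 1 was higher and 3 lower. The median log2 ratio was 4.196 over the members, 0.88 over the other positive genes and 0.02 over all genes. All 12 neutrophil markers had counts in replicate 1 and summed to 76.8 CPM, against 8 of 12 and 3.14 CPM in replicate 2, where Ly6g, Ngp, Mpo and Mmp8 were at 0. Cholangiocyte markers summed to 256 against 56.3 CPM, macrophage markers to 253 against 164 and hepatocyte markers to 87222 against 122756. The hepatocyte list shares Alb, Ttr and Apoa1 with the negative acute phase genes and Fgb with the positive ones, so its sum is not separate from them. Alb alone was at 45756 against 72453 CPM. The part of these cell types in the difference was not tested. Since this library also widened the fitted spread of the members in every CD comparison, the CD results are given with it and, where a call or a value changed, without it.

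Per kilobase of exon, Hp had the highest median level in both batches (3108 CPM per kb in batch 1 and 3566 in batch 2). Orm1 followed at 1306 and 1098, Crp at 314 and 198, Saa4 at 104 and 104, and Saa1 at 78.8 and 83.4 CPM per kb. Lcn2, Saa2 and Orm2 lay between 17.8 and 31.9 CPM per kb, Saa3 at 16.3 and 7.33, and Socs3 at 1.23 and 1.91. Neighbours in this order overlapped over libraries, apart from Orm1 and Crp, whose ranges were separate in either batch. The genes differed more in how far they moved than in their order. Across the 30 batch 2 libraries Crp ranged over 2.92-fold, Saa4 over 3.45-fold, Orm1 over 3.64-fold and Hp over 5.05-fold, while Saa1 ranged over 57.1-fold, Lcn2 over 68.4-fold, Orm2 over 111-fold and Saa2 over 177-fold. Socs3 was close to the detection limit, with 0 counts in 1 R&Z-flox library at 7M, which allows up to 0.149 CPM by counting error, and Saa3 had 1 count in 1 R&Z-del library at PHx 7d.

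**Figure D2:**
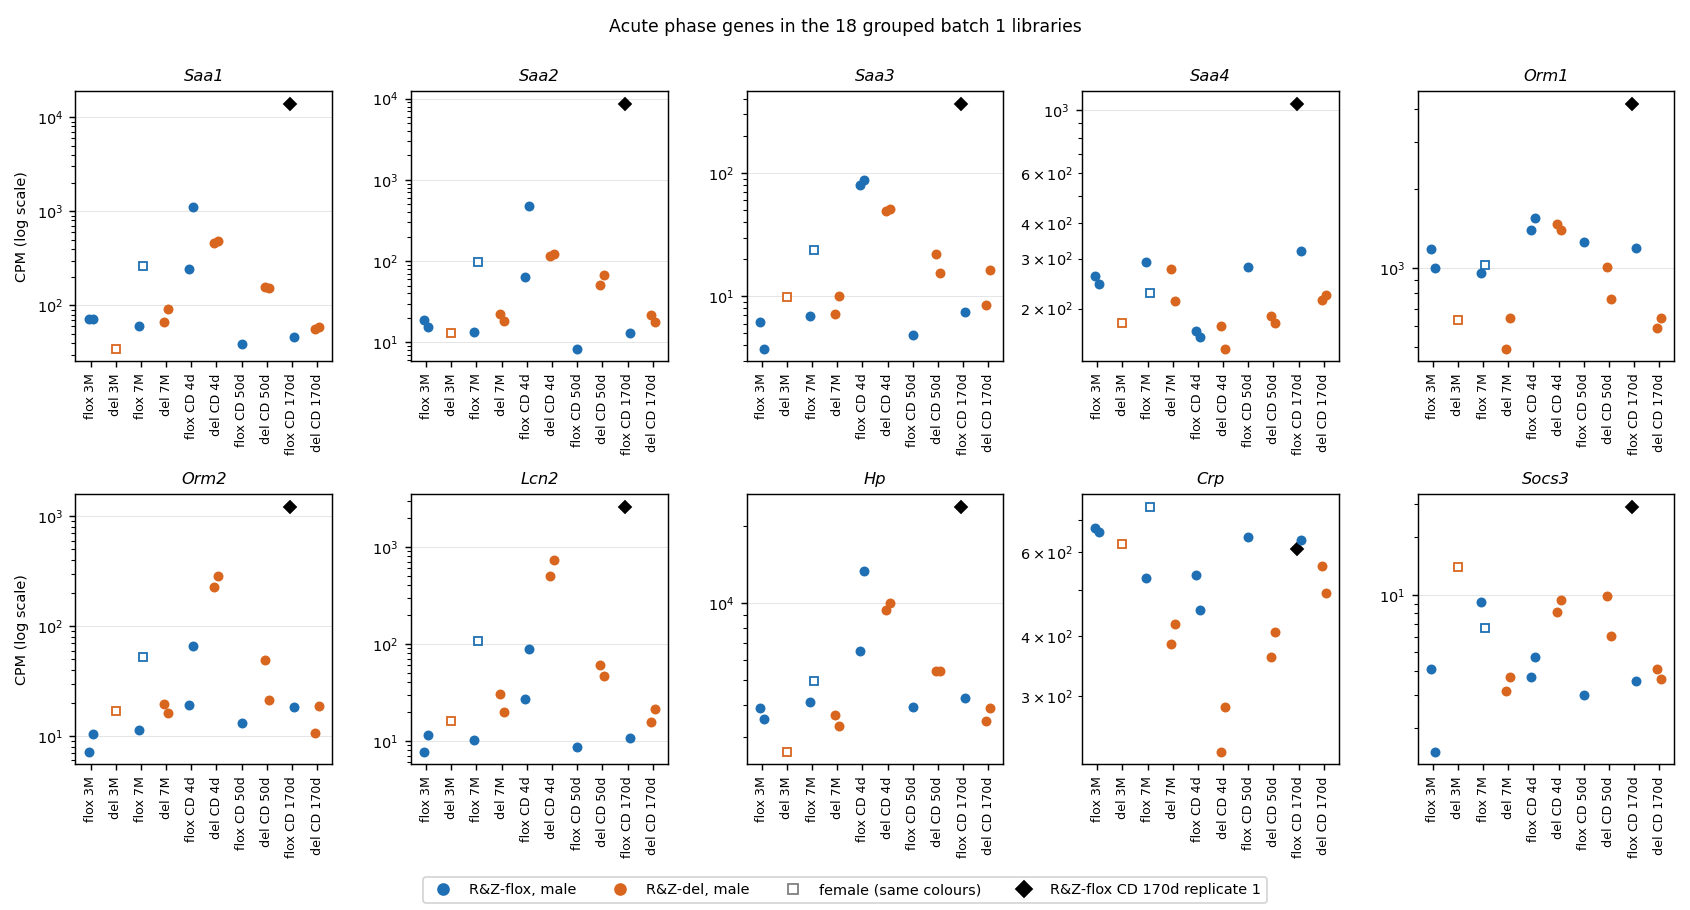
CPM on a log axis for each member in the 18 batch 1 libraries, by group (blue R&Z-flox, orange R&Z-del, open squares females). The R&Z-flox replicate 1 at CD 170d is the highest point in 9 of 10 panels. The CD 4d libraries are raised for Saa1, Saa2, Saa3, Lcn2 and Orm2, with Lcn2 and Orm2 higher in R&Z-del than in R&Z-flox.

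**Figure D3:**
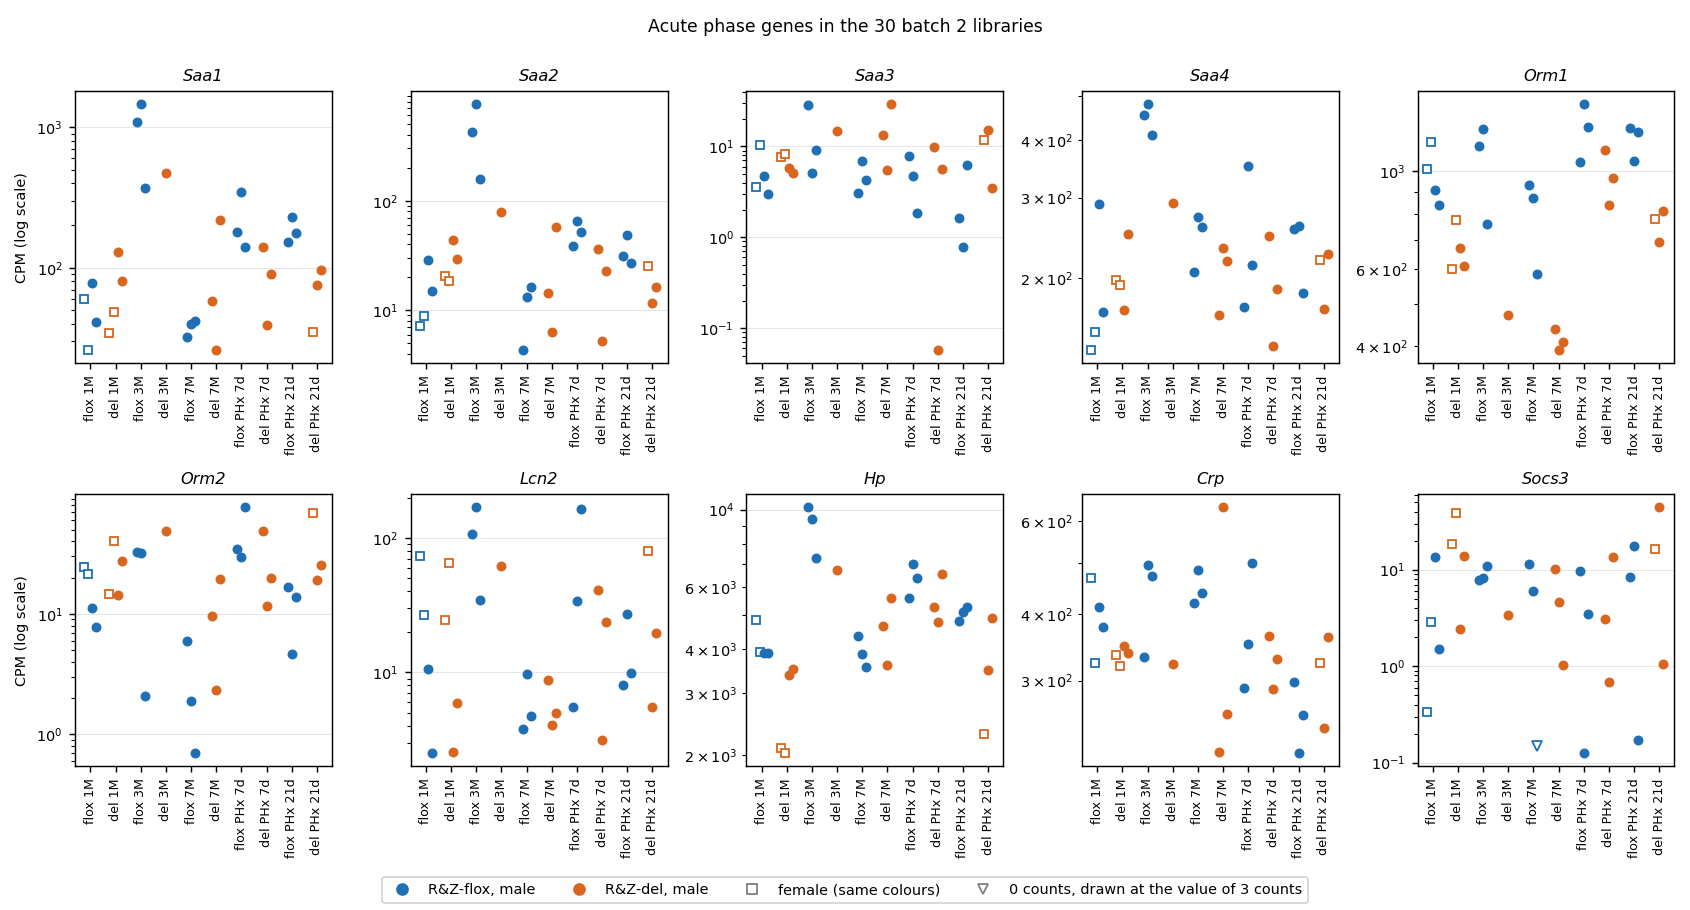
CPM on a log axis for each member in the 30 batch 2 libraries, in the same colours, with a triangle for 0 counts drawn at the value of 3 counts. Orm1 of R&Z-del lies below R&Z-flox at 1M and PHx 21d, and Saa1, Saa2 and Hp are highest in the R&Z-flox libraries at 3M.

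Without damage, Orm1 was the member that differed most regularly between genotypes. At 1M Orm1 was at 601, 776, 671 and 610 CPM in R&Z-del and at 1014, 1165, 909 and 840 in R&Z-flox. All 4 mutant libraries lay below all 4 controls (664 ± 80.7 against 982 ± 142 CPM, mean ± SD, n = 4 and 4). At 3M the R&Z-del libraries were at 635 and 471 CPM, and the 5 R&Z-flox libraries between 759 and 1250 CPM, again without overlap, as in 2.68% of all genes in that direction. At 7M the R&Z-del libraries were at 494, 644, 439, 391 and 409 CPM, and the R&Z-flox libraries at 960, 1024, 930, 870 and 584, where the last overlapped. The log2 fold change was -0.74 ± 0.20 SE at 1M (edgeR adjusted p = 0.18), -1.13 ± 0.27 at 3M (adjusted p = 0.12) and -0.77 ± 0.18 at 7M (adjusted p = 0.071, below the fold limit). Within batches it was -0.77 in batch 1 and -1.18 in batch 2 at 3M, each with 1 R&Z-del library, and -0.83 and -0.84 at 7M. None of the 10 members was thus called at 1M (0.436% of all genes were), at 3M (0.226%) or at 7M (0.451%), and at an unadjusted p below 0.05 the counts were 2, 1 and 1 of 10 members, against 7.74%, 6.43% and 8.89% of all genes, with 0, 1 and 0 members called by DESeq2. Orm1 at 3M was the one called by DESeq2, among 132 genes in all. When R&Z-flox replicate 5 of batch 2 was left out, Orm1 was called by edgeR too (-1.25, adjusted p = 0.021). Albumin (Alb), a negative acute phase gene and hepatocyte marker, was called lower in R&Z-del at the same times (-1.45 at 1M, -1.14 at 3M and -1.58 at 7M). At 1M the summed hepatocyte markers, Alb included, were at 67502 to 87625 CPM in R&Z-del and at 117274 to 133441 in R&Z-flox. Their part in the Orm1 values was not tested.

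Hp was also below R&Z-flox in all 4 R&Z-del libraries at 1M. The R&Z-del females were at 2093 and 2018 CPM and the males at 3377 and 3506, against 4852 and 3930 in R&Z-flox females and 3908 and 3902 in males (log2 fold change -0.79 ± 0.29, edgeR adjusted p = 0.39). With both batches in the fit, the Hp difference was -0.52 ± 0.36 at 3M and 0.00 at 7M. Of the 10 members, only Orm1 and Hp did not overlap at 1M, both lower, as did 1.4% of all genes in that direction, and at 7M none was separate. The remaining members fell to either side of 0. Lcn2 was at -0.55 ± 0.90 at 1M and 0.76 ± 0.86 at 7M, Saa2 at 0.72 ± 0.97 and -0.23 ± 1.03, Orm2 at 0.60 ± 0.88 and 0.93 ± 0.86, and Crp at -0.41 ± 0.23 and -0.34 ± 0.21. The genotype effect at 7M minus that at 1M was called for no member and no gene at all by edgeR, with 0 members at an unadjusted p below 0.05 and 0 by DESeq2.

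The log2 fold change of Orm1 was also negative in R&Z-del at every time in both damage models, although none of these differences was called. At PHx 21d it was at 691, 812 and 781 CPM in R&Z-del and at 1255, 1056 and 1232 in R&Z-flox, without overlap, as in 3.43% of all genes in that direction (-0.80 ± 0.18, edgeR adjusted p = 0.078, below the fold limit). At PHx 7d it was at 1116, 841 and 968 CPM against 1053, 1426 and 1260, with overlap (-0.44 ± 0.17, adjusted p = 0.81). At CD 4d both genotypes were at similar CPM, 1474 and 1394 in R&Z-del against 1392 and 1549, with a log2 fold change of -0.51 ± 0.49 after TMM scaling (-0.51 ± 0.26 without the library that stood apart). At CD 50d it was at 1011 and 764 CPM against 1252 (-0.71 ± 0.58, and -0.67 ± 0.31 without that library), and at CD 170d at 594 and 648 against 4198 and 1185 (-2.32 ± 0.51, adjusted p = 0.13, and -1.14 ± 0.31, adjusted p = 0.28, without the library that stood apart). The CD 170d groups were separate with and without that library, as were 7.4% of all genes in that direction with it. The sign was negative in all 8 comparisons, which share no libraries between them, although those of 1 design share a fit. The share of all genes with a negative sign in all 8 was not determined.

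**Figure D4:**
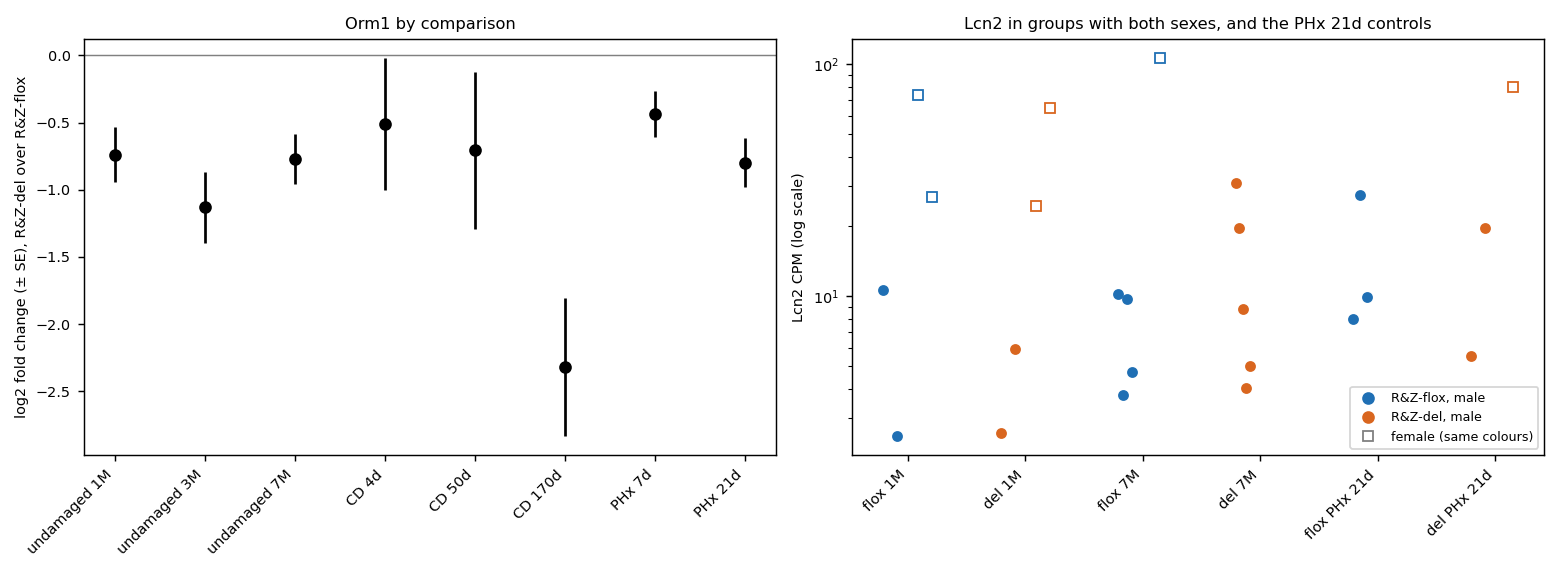
Left, log2 fold change of Orm1 in R&Z-del over R&Z-flox (point) with its SE (bar) in each of the 8 comparisons. Right, CPM of Lcn2 on a log axis in single libraries (blue R&Z-flox, orange R&Z-del, open squares females) at 1M, 7M and PHx 21d. All 8 Orm1 points lie below 0, and each female lies above the males of its own group in Lcn2.

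At 4 d of recovery from chronic damage, Lcn2 and Orm2 were several-fold higher in R&Z-del than in R&Z-flox. Lcn2 was at 496 and 733 CPM in R&Z-del and at 26.8 and 87.8 in R&Z-flox. Orm2 was at 228 and 286 CPM in R&Z-del and at 19.1 and 65.8 in R&Z-flox. Neither pair of groups overlapped, and the mutants also lay above the controls after TMM scaling, at 362 and 480 against 28.3 and 88.7 scaled CPM for Lcn2 and at 166 and 187 against 20.2 and 66.5 for Orm2. That scaling matters here, since the TMM factors were 1.37 and 1.53 in R&Z-del and 0.949 and 0.990 in R&Z-flox, so that on unscaled CPM 66% of all genes stood higher in R&Z-del without overlap. The log2 fold change was 2.94 ± 1.53 for Lcn2 (edgeR adjusted p = 0.20) and 2.12 ± 1.31 for Orm2 (adjusted p = 0.28) in the fit of all CD libraries, and 2.94 ± 0.49 (adjusted p = 0.0045) and 2.12 ± 0.60 (adjusted p = 0.034) without the library that stood apart.

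Crp moved the other way. It was at 230 and 284 CPM in R&Z-del and at 536 and 453 in R&Z-flox, and the groups were separate, as in 11.1% of all genes in that direction on unscaled CPM. Its log2 fold change was -1.43 ± 0.20 (edgeR adjusted p = 0.0032), and it stayed called when any library of the comparison was left out. Crp was the 1 member called of 10, against 15.5% of all genes, and without the library that stood apart 4 were called, against 16.5%, namely Lcn2 and Orm2 higher, Crp lower and Saa3 lower (-1.22 ± 0.32, adjusted p = 0.026). Saa3 was at 49.0 and 51.4 CPM in R&Z-del and at 80.7 and 87.7 in R&Z-flox. Saa1 and Saa2, the inducible hepatic pair, overlapped between genotypes. Saa1 was at 458 and 483 CPM in R&Z-del and at 246 and 1119 in R&Z-flox, and Saa2 at 115 and 122 against 64.4 and 479, so the single R&Z-flox replicate 2 was the highest for both. The same library was the highest for Hp, at 13360 CPM against 6508 in replicate 1 and 9426 and 10012 in R&Z-del. Over the 10 members the median log2 fold change was -0.51, against 0.06 over all genes.

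Cholangiocyte markers were higher along with Lcn2 and Orm2 at this time. All 6 were called higher in R&Z-del, and they summed to between 3527 and 6287 CPM in R&Z-del and between 87.2 and 157 in R&Z-flox. Neutrophil markers summed to between 33.9 and 99.2 CPM in R&Z-del and between 46.1 and 72.0 in R&Z-flox, with 0 of 3 tested called, and macrophage markers to between 486 and 852 against 602 and 1331. Mesothelial and fibroblast markers summed to between 337 and 895 CPM in R&Z-del and between 174 and 272 in R&Z-flox, and 2 of 6 tested were called higher (3 of 5 without the library that stood apart, Col1a1, Col3a1 and Gpm6a). The part of any of these cell types in the Lcn2 and Orm2 values was not tested. The genotype effect at CD 4d exceeded that at CD 170d for Lcn2 by 9.29 and for Orm2 by 7.74 on the log2 scale, and for Crp it was -0.99 (edgeR adjusted p = 0.066, 0.072 and 0.086, 3 members called against 7.88% of all genes, 4.01% higher and 3.88% lower). The Lcn2 and Orm2 values rest on the library that stood apart: without it they were 2.37 and 2.66 (edgeR adjusted p = 0.17 and 0.20). The Crp value hardly moved, at -0.95, although its call was lost (edgeR adjusted p = 0.18). Without that library 0 members were called against 3.34% of genes.

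At CD 50d a single R&Z-flox library could be compared, so that the spread of this group is taken from the other CD groups in every test. Lcn2 was at 60.7 and 46.8 CPM in R&Z-del and at 8.60 in R&Z-flox, Orm2 at 48.7 and 21.3 against 13.1, and Saa1 at 156 and 153 against 39.1. Crp was at 362 and 408 CPM against 645. The lone control was below both mutants in Saa1, Saa2, Saa3, Orm2, Lcn2, Hp and Socs3 and above both in Saa4, Orm1 and Crp, as in 48.9% and 20.6% of all genes. No member was called by edgeR (5.42% of genes were, 1 member had an unadjusted p below 0.05 and DESeq2 called 0), and without the library that stood apart Lcn2 (2.47 ± 0.66, adjusted p = 0.064) and Saa3 (1.79 ± 0.45, adjusted p = 0.055) were called, 2 of 10 against 8.15% of genes. Cholangiocyte markers summed to between 588 and 1144 CPM in R&Z-del and to 100.1 in the control, with 1 of 6 called higher and 5 without the library that stood apart. Mesothelial and fibroblast markers summed to between 299.9 and 503.2 CPM against 189.9, with 1 of 6 and, without that library, 2 of 5 called higher, and neutrophil markers to between 16.6 and 22.1 against 5.48 with none called. Their part was not tested. At CD 170d all 10 members were lower in R&Z-del and all had an unadjusted p below 0.05, against 9.36% of genes. None was called by edgeR (0.62% of genes were), while DESeq2 called 9 among 315 genes in all. The size of these differences rested largely on the library that stood apart, except for Crp, which was level in it (609 CPM against 636 in replicate 2). Saa4, Orm1, Hp and Crp were separate between genotypes with and without it, 4 of 10 members against 7.4% of all genes in that direction with it. Lcn2 was at 15.4 and 21.3 CPM in R&Z-del, between the 10.7 and 2596 of the R&Z-flox replicates, and without replicate 1 the log2 fold changes of the 10 members lay between -1.14 and 0.57 with 0 called (0.313% of genes), whereas without replicate 2 it was 9 members that were called.

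**Figure D5:**
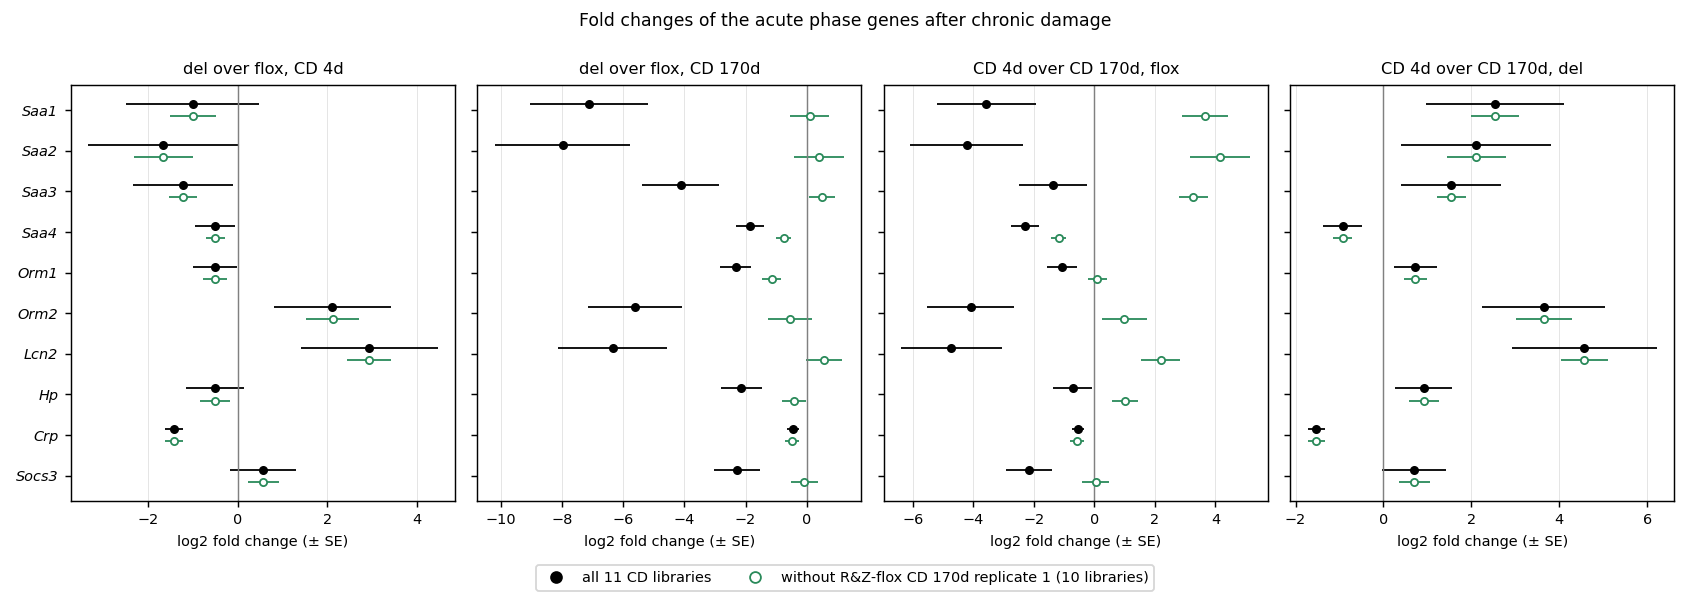
Log2 fold changes (points) with SE (bars) of each member in 4 CD comparisons, with all 11 CD libraries (filled) and without R&Z-flox replicate 1 at CD 170d (open). In the comparisons without that library (del over flox at CD 4d, and the times within del) the points stay in place and the bars shorten. For del over flox at CD 170d the points move to between -1.14 and 0.57, and for the times within flox the points of all members but Saa4 and Crp change sign from negative to positive.

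Within R&Z-flox, the CD 4d livers were compared with undamaged ones, and within each genotype CD 4d was compared with CD 170d. In R&Z-flox, Saa1 was at 246 and 1119 CPM at CD 4d and at 71.3 and 70.9 in undamaged batch 1 livers at 3M, Saa2 at 64.4 and 479 against 19.0 and 15.2, and Saa3 at 80.7 and 87.7 against 6.22 and 3.75. The CD 4d livers lay above the undamaged ones in all 3 genes, and in 7 of the 10 members, as in 32.8% of all genes. With all batch 1 libraries in the fit no member was called, against 3.19% of genes. At an unadjusted p below 0.05 there were 4 members, against 15.9% of genes, and DESeq2 called 1 member among 787 genes. Without the library that stood apart 6 were called higher, against 4.32% of genes, with log2 fold changes of 3.98 ± 0.38 for Saa3 (edgeR adjusted p = 0.00027), 3.86 ± 0.66 for Saa2 (0.013), 3.13 ± 0.52 for Saa1 (0.0100), 2.42 ± 0.51 for Lcn2 (0.033), 2.11 ± 0.59 for Orm2 (0.086) and 1.30 ± 0.31 for Hp (0.052). Saa4, Orm1, Crp and Socs3 were not called. Of the neutrophil markers 4 of 5 tested and of the macrophage markers 3 of 11 were called higher in the same comparison, and their part was not tested.

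In R&Z-del Lcn2, Orm2 and the inducible Saa genes were lower in both CD 170d libraries than in both CD 4d libraries. On unscaled CPM this held for 8 of the 10 members, against 64% of all genes. Lcn2 went from 496 and 733 CPM to 15.4 and 21.3, Orm2 from 228 and 286 to 10.5 and 18.7, and Saa1 from 458 and 483 to 56.1 and 59.3. Crp went up, from 230 and 284 CPM to 560 and 492.7. For 4 d against 170 d, 3 members were called against 22.1% of genes (Lcn2 at 4.57 ± 1.65, Orm2 at 3.65 ± 1.40 and Crp at -1.53 ± 0.20, edgeR adjusted p = 0.066, 0.079 and 0.0022), and leaving out any one of the 4 libraries left Crp alone. Without the library that stood apart, which is no part of this comparison but sets its fitted spread, 6 were called against 22.9% of genes, those 3 with Saa1 at 2.54, Saa2 at 2.11 and Saa3 at 1.54. With all CD libraries in the fit, markers of other cells were called higher at 4 d in the same comparison, 4 of 6 for cholangiocytes (sums of 3527 to 6287 against 246.6 to 304.3 CPM), 9 of 10 for macrophages (486 to 852 against 136 to 146), 3 of 3 tested for neutrophils (33.9 to 99.2 against 1.68 to 5.11) and 3 of 6 for mesothelial cells and fibroblasts, and their part was not tested. In R&Z-flox the library that stood apart decided the direction. Saa1 was at -3.58, Saa2 at -4.22 and Saa3 at -1.36 for 4 d against 170 d with it, and at 3.65, 4.16 and 3.27 (adjusted p = 0.049, 0.074 and 0.010) without it. Saa4 was lower at 4 d either way (-2.28 ± 0.46, adjusted p = 0.038, and -1.18 ± 0.25, adjusted p = 0.052), and it was the 1 member called against 4.44% of genes, with 4 called against 3.96% without the library, though its call was lost when either CD 4d library was left out. At 170 d against undamaged 7M livers of batch 1, edgeR called no member and no gene in either genotype. In R&Z-flox 8 members had an unadjusted p below 0.05, against 5.58% of genes, and DESeq2 called 4 members among 42 genes. In R&Z-del both counts of members were 0. Without the library that stood apart the R&Z-flox log2 fold changes lay between -1.29 and 0.78.

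After partial hepatectomy Saa1, and at 7 d also Saa2, was lower in R&Z-del, by the unadjusted rule. At 7 d Saa1 was at 141, 39.2 and 90.7 CPM in R&Z-del and at 180, 344 and 142 in R&Z-flox, and Saa2 at 36.4, 5.25 and 22.7 against 39.1, 65.2 and 52.4. The groups did not overlap in either gene, as in 4.39% of all genes in that direction, although the highest mutant and the lowest control were almost level. The log2 fold changes were -1.38 ± 0.45 for Saa1 (edgeR adjusted p = 0.51) and -1.37 ± 0.57 for Saa2 (adjusted p = 0.81), which made 2 members called against 4.1% of genes by the unadjusted rule and 0 against 0.228% by the adjusted one. Saa1 lost its call without R&Z-flox replicate 2 (-0.92), and Saa2 lost its call without that library (-1.18), without R&Z-del replicate 2 (-0.91) or without R&Z-del replicate 3 (-1.37), each with an unadjusted p no longer below 0.05. At 21 d Saa1 was at 75.6, 96.4 and 34.8 CPM in R&Z-del, the last a female, and at 152, 230 and 178 in R&Z-flox, again without overlap (-1.32 ± 0.45, edgeR adjusted p = 0.42). It was the 1 member called against 6.69% of genes, with 0 against 0.306% by the adjusted rule. Saa2 was also lower and Orm2 higher in R&Z-del without overlap at 21 d, as in 3.43% and 7.88% of all genes, and neither was called. Lcn2 after PHx followed single livers more than groups. At 7 d it was at 41.4, 3.14 and 23.6 CPM in R&Z-del and at 5.56, 34.0 and 163 in R&Z-flox, and at 21 d at 5.50, 19.8 and, in the female, 80.1 against 8.0, 27.3 and 9.94. The genotype effect at 7 d minus that at 21 d was called for no member and no gene by edgeR, with 1 member at an unadjusted p below 0.05 and 0 by DESeq2.

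Set against undamaged 1M livers of the same genotype and batch, no member was called after PHx. For R&Z-flox at 7 d 4 of 10 members had an unadjusted p below 0.05, against 5.94% of genes, all higher, with Lcn2 at 3.35 ± 0.98, Orm2 at 2.11 ± 0.62, Saa2 at 1.53 ± 0.55 and Saa1 at 1.53 ± 0.46 (edgeR adjusted p between 0.69 and 0.73), and DESeq2 called 3. For R&Z-del at 7 d 3 members did, against 5% of genes, Lcn2 at 2.23 ± 0.98, Hp at 0.84 ± 0.22 and Orm1 at 0.66 ± 0.18, with 0 called by DESeq2. At 21 d the numbers were 2 members in R&Z-flox, against 7.03% of genes, Saa1 at 1.36 ± 0.46 and Crp at -0.61 ± 0.22, and 0 in R&Z-del, with 1 and 0 called by DESeq2. Of all genes edgeR called 0.0142% at 7 d in either genotype and none at 21 d. In R&Z-flox DESeq2 called 192 genes at 7 d and 371 at 21 d. These 2 comparisons of a genotype share their 1M libraries. In R&Z-flox at 7 d, replicate 3 was the highest of its group in Lcn2. Its 77.4 CPM of Orm2 was the highest of batch 2. That library alone of the PHx libraries held counts of the neutrophil markers Ngp (235) and Camp (63). Neutrophil markers summed to between 0.561 and 20.9 CPM in its group and between 0.805 and 10.3 in R&Z-flox at 1M. Their part was not tested.

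The highest Saa1 values of batch 2 were in undamaged livers at 3M. R&Z-flox was at 1089, 1472 and 368 CPM and the 1 R&Z-del library at 472, above each of the 26 other batch 2 libraries. The 3 batch 1 libraries at 3M were at 71.3 and 70.9 CPM in R&Z-flox and at 34.7 in R&Z-del. Saa2 showed the same division, with 428, 767, 158 and 78.3 CPM in batch 2 against 19.0, 15.2 and 13.2 in batch 1, as did Hp, with 10184, 9387, 7269 and 6713 against 3884, 3517 and 2625, and Lcn2, with 107, 171, 34.3 and 61.4 against 7.72, 11.6 and 16. Crp lay the other way, at 333, 497, 473 and 322 CPM in batch 2 and at 674, 661 and 623 in batch 1. Batch 2 was deleted by virus and batch 1 by tamoxifen at 3M, so that batch and agent cannot be told apart. Neutrophil markers summed to at most 7.66 CPM in the batch 2 libraries at 3M.

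Lcn2 lay higher in females than in males at 1M, an order that the 3M livers did not keep. At 1M the females were at 24.6 and 64.8 CPM in R&Z-del and at 73.7 and 26.7 in R&Z-flox, and the males at 2.58 and 5.91 and at 10.59 and 2.495. Every female was above every male in both genotypes, and the share of all genes split in this way was not determined. The 1 female of the 5 R&Z-flox libraries at 7M was at 106 CPM and the males between 3.76 and 10.2. That library was also far the highest of its group in Saa1, Saa2, Saa3 and Orm2, and its title is at odds with its group. At 3M the 1 female, an R&Z-del library of batch 1 at 16 CPM, was above the 2 males of its batch and below the 4 males of batch 2, which were at 34.3 to 171 CPM, all above 2 of the 4 females at 1M. In a comparison chosen after these values were seen, the log2 fold change of females over males was 2.87 ± 0.78 over all undamaged libraries (edgeR adjusted p = 0.10) and 2.93 ± 0.74 over the PHx and 1M libraries (adjusted p = 0.075), which share the 1M livers. The former called 0 members against 0.918% of genes. It had 1 member at an unadjusted p below 0.05, against 6.73% of genes, and DESeq2 called 1 member among 312 genes. The latter called Lcn2 alone against 0.954%. In the latter the call was lost when any of 8 of the 20 libraries was left out, with adjusted p up to 0.23 (R&Z-del replicates 2, 3 and 4 and R&Z-flox replicates 1, 2 and 3 at 1M, and R&Z-del replicates 1 and 3 at PHx 21d). Saa1 lay the other way in the PHx and 1M libraries (-1.11 ± 0.34, adjusted p = 0.23). Among the other acute phase genes, females were higher in Mt1 (3.78), Mt2 (3.53), the pentraxin Apcs (1.44) and the iron hormone Hamp (1.14), 4 of 24 called over the undamaged libraries.

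The other genes of the pathway were called by genotype at CD 4d in numbers to be read against the 15.5% of all genes called there. Of 24 other positive acute phase genes 1 was called higher in R&Z-del, the interleukin 1 antagonist Il1rn (2.78, edgeR adjusted p = 0.0077), and 6 lower, among them the fibrinogen chains Fgg (-2.26) and Fga (-2.04) and the immunoglobulin transporter Pigr (-1.93). The median of that list was -0.48. Of 12 negative acute phase genes 1 was lower, the coagulation factor F12 (-1.29). In the IL6 and STAT3 list 1 of 20 was higher, Fos (1.93), and in the IL1, TNF and NF-kB list 3 of 19 were higher and 2 lower, with Il1rap at -1.64, Nfkbie at 1.35, Relb at 1.26 and Nfkb2 at 1.22. Of the 7 genes of the glucocorticoid list the clock gene Per1 was higher (2.87). Without the library that stood apart the counts higher and lower were 2 and 7 for the positive list and 1 and 1 for the IL6 list, and those of the other 3 lists were as before. In undamaged livers and at each time, Alb was the single gene called of these 5 lists. After PHx at 7 d, by the unadjusted rule that called 4.1% of all genes, 4 of 24 positive genes were lower in R&Z-del, namely Mt1 (-4.82), Serpina3g (-1.81), Hamp (-1.41) and Mt2, which had 0 counts in all 3 R&Z-del libraries and 16, 9 and 387 in R&Z-flox. Mt1 was set by the same R&Z-flox replicate 3, with 784, 156 and 14487 counts in the 3 R&Z-flox libraries. Lower too were 3 of 21 in the IL6 list, Pim3 (-1.62), Junb (-1.32) and Il6st (-1.05), with Per1 (-5.20, from 0, 5 and 3 counts against 5, 102 and 162) and Alb (-1.52). At 21 d, where 6.69% of all genes were called, Apcs (-1.57), Steap4 (-1.11), Cish (-3.56), Nfkb2 (-2.97, with 349, 26 and 32 counts in R&Z-flox and 38, 15 and 18 in R&Z-del) and Alb (-1.09) were lower, as was Socs1. Socs1 had 0 counts in all 3 R&Z-del libraries and 24, 7 and 0 in R&Z-flox. At CD 50d, against the lone control and beside 5.42% of all genes, Il22ra1 (1.68) and Relb (2.34) were higher and Il1b (-2.88), Il1rap (-1.52), Thrsp (-3.002) and Alb (-1.62) lower. Without the library that stood apart those 6 were called too (8.15% of all genes were), with Mt2 (2.84), Cebpb (1.86) and Nfkb2 (1.24) higher and Tat (-1.13) lower. At CD 170d no gene of the 5 lists was called, with or without that library.

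Within groups, the members varied together in part. After subtraction of group means, the Spearman correlation over the 30 batch 2 libraries was 0.71 for Hp with Saa1 and for Orm1 with Orm2 and 0.69 for Saa1 with Saa2, the last 2 being paralog pairs that share reads, and it was lowest for Crp with Saa3 (-0.39). Sex was not subtracted, although both groups at 1M and R&Z-del at PHx 21d held both sexes. Libraries share depth and cell make-up, so these values describe co-variation among livers and nothing more. The genes most alike in pattern were, out of 14774, Hp, Klf12 and Saa2 for Saa1 (0.71, 0.70 and 0.69), Cyp2c40, Cyp2b13 and Fgl1 for Lcn2 (0.83, 0.81 and 0.80), and F9, Hp1bp3 and Tank for Crp (0.79, 0.78 and 0.77). Cyp2c40 and Cyp2b13 are cytochrome P450 genes with higher expression in female than in male mouse liver.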

How the data were processed

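Total RNA from whole mouse liver was sequenced as single reads of 50 bases in 2 batches. Per the submitters' processing notes, reads were trimmed with Trim Galore, aligned to mm10 with STAR (2.5.0a) and counted with featureCounts (1.5.0-p1 and 1.5.0-p3); the deposited files hold raw gene counts, not normalized by the authors and not strand-specific in the sources used here. The counts of Saa3 and Orm1 can therefore include reads of overlapping genes (24 and 52 exon bases).

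The 10 members, the gene lists and the tests were chosen with earlier results of these data known. Groups follow the labels, and 5 libraries that the labels place in no group entered no comparison. Counts were tested with edgeR 4.0.16 (R 4.3.3; TMM, quasi-likelihood F test, Benjamini-Hochberg adjustment over all genes). A gene was kept at a CPM above 1 in at least 3 libraries, or in 6 of the CD libraries. The undamaged model had terms for group, sex and batch over the shared symbols, the PHx model group and sex, and the CD model group. SE is the log2 fold change divided by the square root of F. DESeq2 1.42.0 (Wald test and size factors), a likelihood ratio test, no filter, other sample sets, a replicate block and leaving out each library (67 fits) were alternatives, and the scripts were tested on simulated data. Not every member is named in each comparison, and from every list up to 4 called genes of largest change are named. Replicate numbers did not pair the samples. The total of 11721687 counts or more per library sets the precision, and the limit for 0 counts is that of 3 counts, for counting error only. Coordinates are those of GRCm38.p6, the assembly of mm10, with promoter sequences from RefSeq; motif matches were sought on both strands of the 250 bases before each start. No rows lacked a gene name.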

Additional observations from a re-analysis of the deposited data

Results flagged for a closer look

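Each gene was examined in each group of 4 or 5 libraries, 50 cases in all, and 7 cases had a library far from the rest. The rule's rate of about 1 in 20 is for independent cases. Of the 7, 5 were the same library, and groups mixed batches or sexes, so that rate cannot be set against them. In R&Z-flox at 7M, replicate 5 of batch 1 was the highest by a wide gap in 5 genes, with 106 CPM of Lcn2 (next 10.2), 51.9 of Orm2 (next 11.4), 259 of Saa1 (next 61.0), 97.5 of Saa2 (next 16.3) and 24.0 of Saa3 (next 6.92). It is the 1 female of that group, and its group was taken from the characteristics, with which its title is at odds. In R&Z-flox at 1M the female replicate 3 held 4852 CPM of Hp (next 3930). In R&Z-flox at 3M replicate 3 of batch 2 held 28.6 CPM of Saa3 (next 9.18).

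The genotype effect differed between CD 4d and CD 170d by 7.74 for Orm2, 9.29 for Lcn2 and -0.99 for Crp (log2, edgeR adjusted p = 0.072, 0.066 and 0.086), and none of these differences was called without R&Z-flox replicate 1 at CD 170d.

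A batch 1 library in no group held 71.4 CPM of Orm2, above the 51.9 CPM that was the highest of the 4 undamaged R&Z-flox libraries of that batch.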

How the results depend on the processing

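Counts of called members changed by setting as follows, beside the values in the report. With the DESeq2 Wald test they were 9 at CD 170d, 1 at 3M, 4 for CD 170d against 7M and 4 for CD 4d against CD 170d in R&Z-flox, 1 for CD 4d against 3M, 3 and 1 for PHx 7d and 21d against 1M in R&Z-flox, 2 and 1 for sex with and without PHx, and 6 for the change of genotype effect between CD 4d and CD 170d. Without a filter they were 6 at CD 4d, 7 at CD 50d, 9 at CD 170d, 1 at 3M, 8 for CD 170d against 7M, 7 and 8 for CD 4d against CD 170d in R&Z-del and R&Z-flox, 6 for CD 4d against 3M, 1 for PHx 21d and 2 for PHx 7d in R&Z-flox and 1 for PHx 7d in R&Z-del against 1M, 2 and 1 for sex, and 10 for that change of effect. With the likelihood ratio test they were 9 at CD 170d, 5, 2, 1 at 3M, 1 for sex and 7 for the change of effect, the 5 and 2 being CD 4d against CD 170d and against 3M. DESeq2 size factors gave 1 at 3M and 1 for sex without damage. Without R&Z-flox replicate 1 at CD 170d, a choice made after seeing the data, they were 4 at CD 4d, 2 at CD 50d, 6 and 4 for CD 4d against CD 170d in R&Z-del and R&Z-flox, 6 for CD 4d against 3M and 0 for the change of effect, and Saa1, Saa2 and Saa3 reversed to 3.65, 4.16 and 3.27. All batch 1 libraries in 1 fit gave 1 at CD 170d and 1 at CD 50d. After PHx the adjusted rule gave 0 at both times, and a fit without sex 2 at 21 d. Sex without damage gave 2 in batch 1 and 1 in batch 2. The calls over all genes moved as well. DESeq2 called 315 at CD 170d and 132 at 3M, against 74 and 29 in the main fits. It called 897 for CD 4d against CD 170d in R&Z-flox and 1635 for the change of effect, against 530 and 941. Without a filter 3287 were called at CD 4d and 666 at CD 170d, against 1845 and 74. The likelihood ratio test called 298 at CD 170d and 1554 for the change of effect. The counts of members are to be read beside these. Of 170 mean CPM values, 27 moved by over 1 SD under TMM scaling. Apart from the library named, the cause was not tested.

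Leaving out a library in turn gave 0 to 9 called at CD 170d, 1 at CD 4d and 0 at CD 50d. It gave 1 to 2 at PHx 21d, 0 to 4 at PHx 7d, 0 to 1 at 3M and 0 at 1M and 7M. For CD 4d against CD 170d it gave 1 in R&Z-del and 0 to 9 in R&Z-flox, for CD 170d against 7M 0 to 8 in R&Z-flox, for sex 0 to 1 in both sets, and for the change of effect 0 to 10. The lone R&Z-flox library at CD 50d could not be left out.

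With the replicate block the count was 0 at PHx 21d, where Saa1 was at -1.17 and its unadjusted p was above 0.05, and no other count of called members changed. Same-numbered libraries deviated together at CD 4d (0.33) and in opposite ways at CD 170d (-0.36), and the correlation lay between -0.086 and 0.14 elsewhere, so the numbers were not taken to pair the samples. With crossed numbers at CD 170d the block called 0 members and 158 genes, against 7 genes uncrossed. At 3M the groups shared no number for a block.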

Other observations

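The 5 batch 1 libraries that the labels put in no group entered no comparison. Their Saa1 values lay between 46.4 and 90.01 CPM with a median of 64.7, Saa2 between 18.2 and 31.7 with a median of 23.8, and Saa3 between 8.11 and 21.2 with a median of 9.80. Lcn2 lay between 24.3 and 77.6 CPM (median 30.9), Orm2 between 26.7 and 71.4 (median 29.3) and Orm1 between 631 and 1074 (median 882). Hp lay between 2008 and 4346 CPM (median 2895), Crp between 461 and 700 (median 571), Saa4 between 174 and 253 (median 232) and Socs3 between 1.90 and 6.33 (median 4.24). None of the 5 approached the library that stood apart at CD 170d in any of the 10 genes but Crp.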
